A study of Mus musculus with 8 samples.

Results

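Fatty acid desaturases place double bonds into fatty acyl chains, and 8 of their genes, picked by symbol, were followed here among the 25010 genes of the liver table. They were the stearoyl-CoA desaturase genes *Scd1*, *Scd2*, *Scd3* and *Scd4* and the fatty acid desaturase genes *Fads1*, *Fads2*, *Fads3* and *Fads6*. All 8 were present, and 6 averaged 10 or more normalized counts and entered the test. The study compared WT mice with whole-body LXRDKO mice, which lack both liver X receptors, LXRα (*Nr1h3*) and LXRβ (*Nr1h2*). Polyadenylated RNA of the left liver lobe was sequenced from 2 WT and 2 LXRDKO livers. All animals were 8 weeks old, of C57BL/6 background, and had been fasted for 4 to 6 h. The gene reads of each liver numbered from 55772659 to 72842744.

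Stearoyl-CoA desaturases sit in the endoplasmic reticulum and convert saturated palmitoyl- and stearoyl-CoA into palmitoleoyl- and oleoyl-CoA, the main monounsaturated chains of triglycerides, cholesteryl esters and phospholipids. *Fads1* and *Fads2* encode the desaturases that, with elongases between them, turn the dietary linoleic and alpha-linolenic acids into arachidonic, eicosapentaenoic and docosahexaenoic acid, mostly in liver. Both families draw electrons from NADH through cytochrome b5 reductase and cytochrome b5, and in liver *Scd1* is a known target of LXR and of SREBP-1c, the *Srebf1* product.

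The labels were checked first against the deleted genes. *Nr1h3* stood at 5785 and 5322 normalized counts in WT replicates 1 and 2 and at 1712 and 1826 in LXRDKO replicates 1 and 2. *Nr1h2* stood at 2987 and 3110 in WT and at 925 and 1003 in LXRDKO liver. Both genes were lower in both LXRDKO livers and both fell, with log2 fold changes of −1.65 and −1.66 (adjusted *P* = 0.0147 each, limma). The table holds 1 value per gene, so reads from the deleted exons and reads from the rest of each transcript cannot be told apart. Liver identity was checked with 8 hepatocyte markers, led by *Alb*, whose summed normalized counts were 7106523, 7912720, 7394801 and 6760761 in the WT and then the LXRDKO livers.

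*Scd1*, the main stearoyl-CoA desaturase of adult mouse liver, showed the widest gap on the log2 scale among the tested members. Normalized counts of *Scd1* were 555930 in WT replicate 1 and 1098392 in WT replicate 2, against 28020 in LXRDKO replicate 1 and 69359 in LXRDKO replicate 2. The genotypes did not overlap, although the livers within each genotype differed 1.98-fold (WT) and 2.48-fold (LXRDKO), in each case with replicate 2 higher. The share of all gene reads taken by this single gene was 0.874% and 1.78% in WT liver and 0.0464% and 0.115% in LXRDKO liver. The log2 fold change, LXRDKO over WT on log2(normalized count + 1), came to −4.15 with a standard error (SE) of 0.51 and a 95% interval from −5.42 to −2.87, which is 17.7-fold. Only 6 of the 15578 genes tested had a lower log2 fold change, and none did among the 835 genes that averaged 10000 or more normalized counts.

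The test placed *Scd1* just outside the threshold of 0.05 in limma (adjusted *P* = 0.0615) and inside it in DESeq2 run on the recovered reads (adjusted *P* = 1.72e-05). Adjusted *P* ran from 1.62e-05 to 0.244 over all alternatives. It was 0.0076 without WT replicate 1, 0.0207 without WT replicate 2, 0.24 without LXRDKO replicate 1 and 0.129 without LXRDKO replicate 2. With 2 livers against 2, the smallest *P* value of an exact two-sided permutation test is 0.333, and the limma and DESeq2 values measure the spread between these livers only.

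Across the family, limma called 0 members lower, where it called 0.186% of all genes tested lower, and 0 higher, where it called 0.135% higher. At an unadjusted *P* under 0.05 limma had 4 members, *Scd1*, *Fads1* and *Fads2* lower and *Fads3* higher, where 13.3% of all genes tested had one, and edgeR called 0 members, where it called 0.315% of all genes. DESeq2 called 2 members lower, *Scd1* and *Fads2*, beside 2.03% of the genes it tested, and 0 higher, beside 1.56%. The 2 LXRDKO values were below the 2 WT values for 4 of the 6 tested members (*Scd1*, *Scd2*, *Fads1* and *Fads2*), beside 23% of all genes tested, and above both for 1 (*Fads3*), beside 21.7%. The median log2 fold change of the 6 tested members was −0.69, and that of all genes tested was −0.0046.

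**Figure D1:**
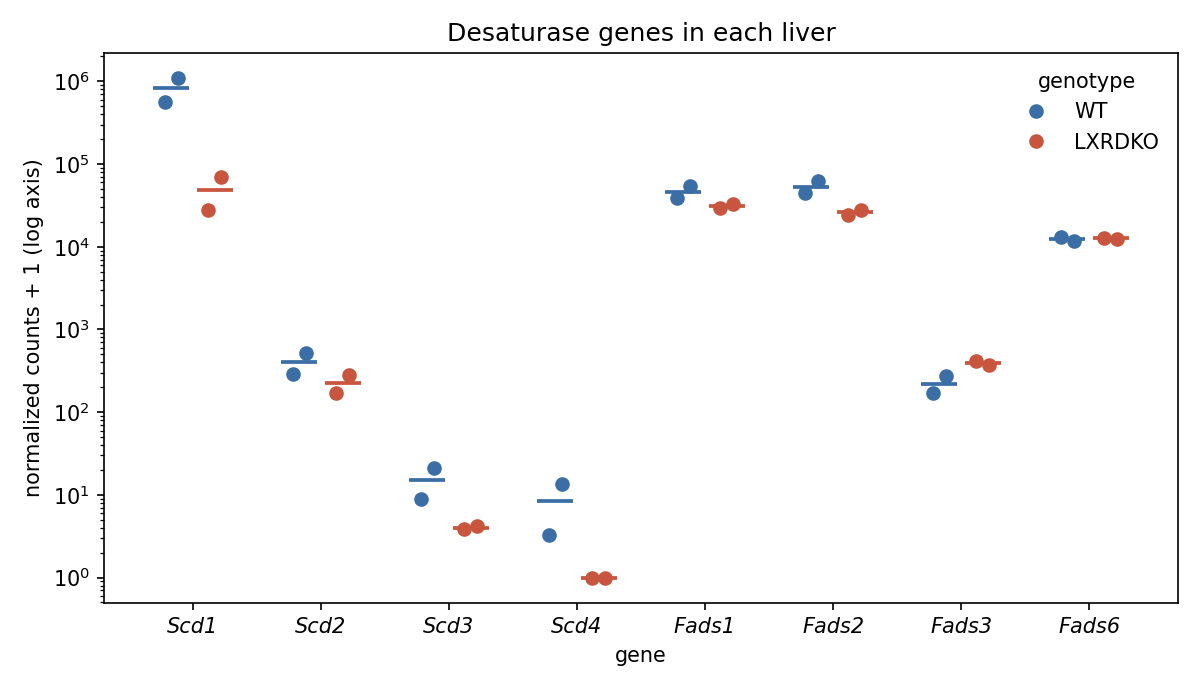
Normalized counts plus 1 of the 8 desaturase genes on a log axis, with 1 point per liver, WT in blue and LXRDKO in red, and a short line at each mean (n = 2 livers per genotype). *Scd1* spans 28020 to 1098392 normalized counts with no overlap between the genotypes, while the *Fads6* points of both genotypes lie between 11861 and 13032.

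*Scd2*, the prevailing stearoyl-CoA desaturase of the brain, was present in liver at a small fraction of the *Scd1* level. It had 290 and 519 normalized counts in WT replicates 1 and 2, and 172 and 282 in LXRDKO replicates 1 and 2. The lower WT liver and the higher LXRDKO liver nearly met, and they overlapped when libraries were scaled to their totals (283 against 290) or to their upper quartiles (273 against 284). The log2 fold change of *Scd2* was −0.81 (SE 0.36, 95% interval −1.71 to 0.08), and its adjusted *P* was 0.409 in limma and 0.251 in DESeq2. In bulk liver, fewer cells of a type and less RNA per cell cannot be told apart.

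*Scd3*, known from sebaceous glands of the skin, and *Scd4*, known from the heart, were close to the limit of detection and did not enter the test. *Scd3* had 7 and 24 reads in WT replicates 1 and 2 and 3 reads in each LXRDKO liver. Its depth-adjusted ratio of WT over LXRDKO, from 31 against 6 reads, was 4.99 with an exact 95% counting interval from 2.05 to 14.6. With livers left out in turn, a setting chosen after seeing the data, the ratio was 2.64 without WT replicate 2, which held 24 of the 31 reads, 6.74 without WT replicate 1, and 4.69 and 5.30 without LXRDKO replicates 1 and 2. *Scd4* had 2 and 15 reads in the WT livers and 0 in both LXRDKO livers. The mean of the WT livers was 7.51 normalized counts, so that *Scd4* was at least 2.48-fold lower in LXRDKO liver against a floor of 3 reads per library, and WT replicate 1 was itself under that floor. These intervals and floors cover counting error only, not the difference between animals.

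Reads of the *Scd* genes could be confused with each other, and how reads that match several genes were counted is not stated, so the *Scd2*, *Scd3* and *Scd4* counts are uncertain. Of all windows of 50 bases, the read length, in the longest coding transcript of each gene, 6.37% in *Scd3*, 4.66% in *Scd1*, 3.79% in *Scd2* and 3.44% in *Scd4* also occurred exactly in a transcript of another member. When up to 2 mismatches were allowed, a setting chosen after seeing the data, these shares were 16.1% in *Scd3*, 12% in *Scd1*, 9.23% in *Scd2* and 9.33% in *Scd4*. The whole count of *Scd3* compares with 487395 and 1294067 *Scd1* reads in WT liver and 29520 and 64702 in LXRDKO liver. Per kilobase of exon, *Scd3* had 1.98e-05 and 2.55e-05 of the *Scd1* level in WT liver and 0.00014 and 6.39e-05 in LXRDKO liver, where each value rests on 3 *Scd3* reads. The part of misplaced reads in these counts was not tested.

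The coding sequences of the *Scd* genes show how close the copies are. *Scd1* shares 91.5% of aligned coding bases with *Scd3*, 90.4% with *Scd2* and 84.7% with *Scd4*. The longest coding stretch that *Scd1* and *Scd4* have in common runs over 116 bases inside exon 4 of both, at chr19:44338922-44339037 on the plus strand for *Scd4* and chr19:44401771-44401886 on the minus strand for *Scd1*. Between *Fads3* and *Fads2*, which share 69.8% of aligned coding bases, the longest common stretch has 54 bases and joins exons 10 and 11 of both genes. *Scd1* shares longer stretches, of 185 bases with *Scd3* and 147 bases with *Scd2*, which join exons 4 and 5 and hold no whole histidine box, 1 of the clusters of histidines that bind the catalytic iron. The stretches of 116 and 54 bases are printed because each holds such a box whole, and no read of 50 bases inside either can be assigned to 1 gene. Capitals mark the 5 codons of the box, found as a histidine, any 2 residues and 2 histidines in the *Scd* genes, and as a glutamine, any 2 residues and 2 histidines in the *Fads* genes. The bases are those of the GENCODE M21 transcripts, placed on GRCm38 by the exons of that release.
Scd4 and Scd1: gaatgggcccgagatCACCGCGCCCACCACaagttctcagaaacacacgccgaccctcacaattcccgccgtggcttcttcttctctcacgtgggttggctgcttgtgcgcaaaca
Fads3 and Fads2: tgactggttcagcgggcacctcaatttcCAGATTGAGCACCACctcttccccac

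*Fads2*, which carries out the entry step of polyunsaturated fatty acid synthesis, was the other member that DESeq2 called. *Fads2* had 44564 and 62432 normalized counts in WT replicates 1 and 2, and 24349 and 27625 in LXRDKO replicates 1 and 2. The higher LXRDKO liver stayed well under the lower WT liver, and the WT livers differed 1.40-fold. The log2 fold change of *Fads2* was −1.02, with an SE of 0.19, a 95% interval from −1.49 to −0.56 and an adjusted *P* of 0.127 in limma and 7.77e-06 in DESeq2. Without WT replicate 1 its adjusted *P* in limma was 0.0114, within a range from 7.3e-06 to 0.387 over all alternatives.

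*Fads1*, whose product adds the last double bond of arachidonic and eicosapentaenoic acid, showed a smaller gap. Its livers had 38618 and 54026 normalized counts in the WT group, against 29038 and 32577 in the LXRDKO group. The genotypes did not overlap, but the WT livers lay further from each other than WT replicate 1 lay from the nearer LXRDKO liver. The log2 fold change of *Fads1* was −0.57 (SE 0.18, 95% interval −1.03 to −0.11), with an adjusted *P* of 0.296 in limma and 0.0529 in DESeq2. It passed the threshold without WT replicate 1 (adjusted *P* = 0.0493, limma) and in DESeq2 with independent filtering set to 0.05, a setting chosen after seeing the data (adjusted *P* = 0.0496), and ranged up to 0.641.

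The balance between the *Fads1* and *Fads2* transcripts differed by genotype within each library, a comparison that no scaling between libraries affects. Per kilobase of exon, *Fads2* had 1.69 times the *Fads1* level in both WT livers, 1.22 times in LXRDKO replicate 1 and 1.24 times in LXRDKO replicate 2. The livers of 1 genotype lay close together and the genotypes did not overlap. How many other gene pairs lack overlap was not computed, and no test was run on this ratio.

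*Fads3*, which acts on sphingoid bases, was the member with higher values in LXRDKO liver. It had 169 and 273 normalized counts in WT replicates 1 and 2, and 418 and 371 in LXRDKO replicates 1 and 2. Both LXRDKO livers were above both WT livers, also with libraries scaled to their totals or upper quartiles. The log2 fold change of *Fads3* was 0.87 (SE 0.26, 95% interval 0.23 to 1.52), with an adjusted *P* of 0.263 in limma and 0.0963 in DESeq2, so it did not pass either test.

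*Fads6*, a member of the family on another chromosome, had nearly the same level in every liver. Its normalized counts were 13032 and 11861 in WT liver and 12797 and 12550 in LXRDKO liver. The LXRDKO livers lay between the WT livers, although both lay above them after scaling to library totals or upper quartiles. The log2 fold change of *Fads6* was 0.03, with an SE of 0.10 and a 95% interval from −0.21 to 0.26, and the adjusted *P* was 0.939 in limma.

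The livers of 1 genotype also differed from each other. In the WT group, 5 of the 6 tested members were higher in replicate 2, all except *Fads6*, while 49.5% of all genes tested were. In the LXRDKO group, 4 of the 6 were higher in replicate 2, namely *Scd1*, *Scd2*, *Fads1* and *Fads2*, beside 50.3% of all genes tested. The WT ratio, replicate 2 over replicate 1, was 1.98 for *Scd1*, 1.79 for *Scd2*, 1.62 for *Fads3* and 1.40 for both *Fads1* and *Fads2*.

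Levels were compared between genes per kilobase of merged exons. In WT liver *Scd1* led with 169084 ± 78409 normalized counts per kilobase (SD, n = 2), followed by *Fads2* with 16236 ± 3835, *Fads1* with 9626 ± 2264 and *Fads6* with 1871 ± 124. *Scd2* (74.0 ± 29.6) and *Fads3* (58.3 ± 19.5) came next and overlapped, as did *Scd3* and *Scd4* at the bottom. In LXRDKO liver *Scd1*, with 9953 ± 5975 normalized counts per kilobase, overlapped both *Fads2* (7887 ± 703) and *Fads1* (6402 ± 520). *Fads1* lay below *Fads2* without overlap, and *Fads6* (1905 ± 26.3) lay below *Fads1* without overlap. *Fads3* (104 ± 8.72) stood above *Scd2* (41.5 ± 14.3) there. *Scd1* had 14.2 and 20.0 times the *Fads1* level per kilobase in WT liver and 0.949 and 2.09 times in LXRDKO liver. Together the 8 members took 1.03% and 1.99% of the gene reads of the WT livers and 0.157% and 0.237% of those of the LXRDKO livers.

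The genes lie in 2 clusters and 1 single locus (GRCm38 coordinates, GENCODE M21). The *Scd* cluster covers 204.6 kb at chr19:44203269-44407879, in the order *Scd3*, *Scd2*, *Scd4* and *Scd1*, with *Scd1* alone on the minus strand. The *Fads* cluster covers 155.3 kb at chr19:10041569-10196877, with *Fads3* and *Fads1* on the plus strand, *Fads2* between them on the minus strand, and 81.1 kb between the starts of *Fads2* and *Fads1*. *Fads6* lies at chr11:115279622-115297663 on the minus strand. Within 100 kb of a member, 36 other genes are annotated, of which 21 were in the table and 17 were tested.

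None of the 17 tested neighbours was called by limma, with 0 at an unadjusted *P* under 0.05, and DESeq2 and edgeR called 0 as well. Over all genes tested, 13.3% had such a *P*, limma called 0.186% lower and 0.135% higher, DESeq2 called 2.03% lower and 1.56% higher, and edgeR called 0.315%. Their log2 fold changes ran from −0.24 (*Chuk*, beside the *Scd* cluster) to 0.74 (*Gm10143*, an antisense gene overlapping *Fen1* beside *Fads1*). *Fth1*, which encodes ferritin heavy chain and lies near *Fads3*, had normalized counts of 88856 and 90054 in WT and 104172 and 93103 in LXRDKO liver. *Myrf*, near *Fads1*, stood at −0.03 on the log2 scale. Inside *Fads1*, *Mir6993* was counted as a gene of its own with at most 10.2 normalized counts in any liver.

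**Figure D2:**
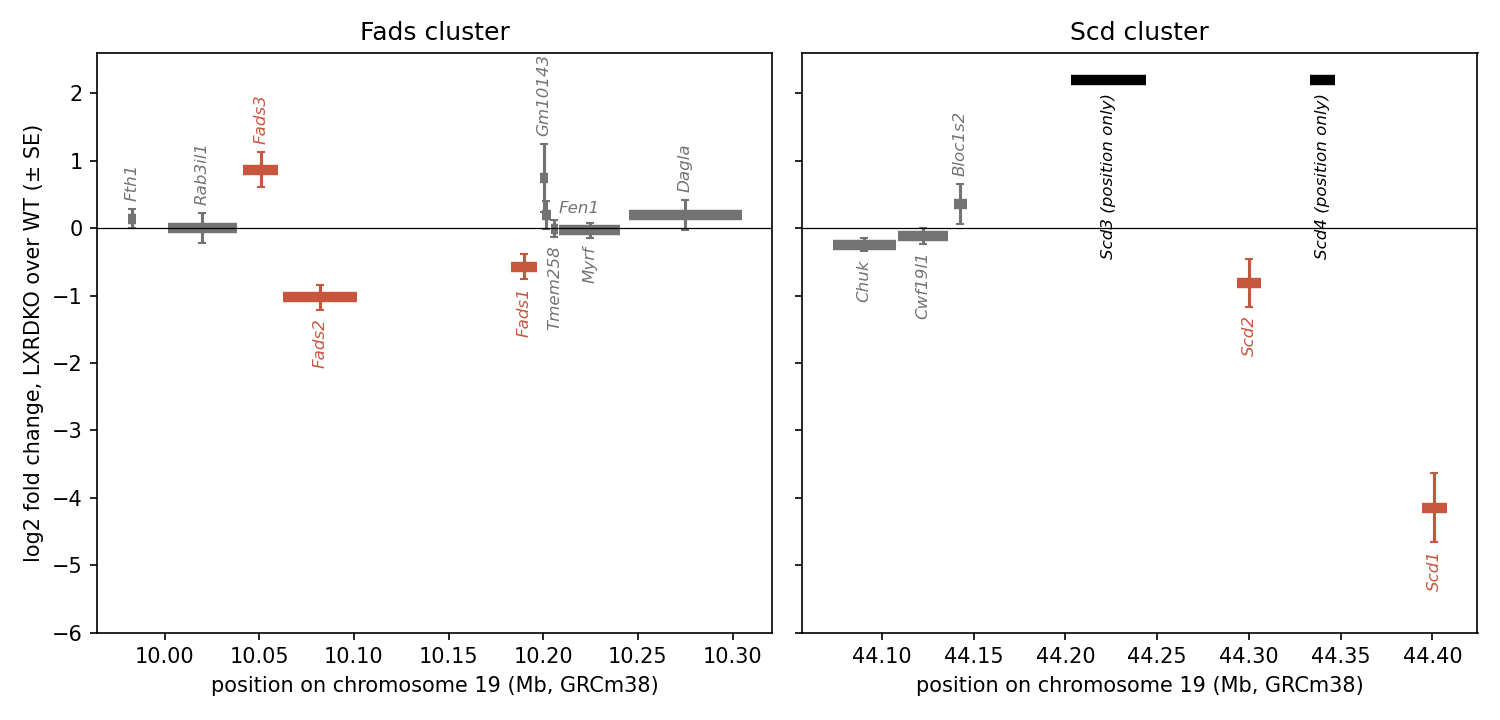
Log2 fold change (LXRDKO over WT, limma, bars ± SE) of tested genes along the *Fads* and *Scd* clusters of chromosome 19, drawn at their GRCm38 positions, with members in red and neighbours in grey. *Scd1* lies at −4.15 and *Fads2* at −1.02, while the neighbours lie between −0.24 and 0.74; *Scd3* and *Scd4*, which were not tested, are placed by position only.

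The RefSeq promoter table used (GRCm38.p6), with windows from 250 bases before to 50 after the start, held *Fads2*, *Fads3*, *Fads6*, *Scd3* and *Scd4*, and not *Scd1*, *Scd2* and *Fads1*. These 5 were searched on both strands for 5 motifs. GGGCGG, the GC box, occurred in *Fads2*, *Fads3* and *Fads6* and in 35.7% of all 32851 promoters of the same length. CCAAT, which NF-Y binds, occurred in *Fads3* and in 37.4% of all promoters. AGGTCA, a nuclear receptor half-site, occurred in *Fads6*, at −121 to −116 from the start and reversed at −69 to −64, and in 16.3% of all promoters. A direct repeat of AGGTCA with 4 bases between the copies occurred in none of the 5 and in 0.0152% of all promoters, and TCACNCCAC, the core of a sterol regulatory element, in none of the 5 and in 1.24%. A match describes the letters of a window and is not a measured binding site.

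Electrons reach the desaturases through cytochrome b5 and its reductases, and 6 of the 7 genes of that list were tested. Limma called 0 of them, beside 0.186% of all genes tested called lower and 0.135% higher, and 3 had an unadjusted *P* under 0.05, beside 13.3%. DESeq2 called 2 lower, beside 2.03% of the genes it tested, and edgeR 0, beside 0.315%. The median log2 fold change was −0.20, with 5 genes below 0. *Cyb5r3*, the main reductase, had normalized counts of 42297 and 40497 in WT and 27730 and 29054 in LXRDKO liver, and its log2 fold change was −0.54 (SE 0.10, adjusted *P* = 0.134 in limma and 0.00096 in DESeq2). *Cyb5b*, the form of the outer mitochondrial membrane, stood at −0.61 on the log2 scale (SE 0.15, adjusted *P* = 0.215 in limma and 0.0144 in DESeq2). *Cyb5a*, the form of the endoplasmic reticulum, differed in the other direction, with normalized counts of 45392 and 41323 in WT and 53687 and 54199 in LXRDKO liver. Its log2 fold change was 0.32 and that of *Cyb5r1* −0.29, and neither passed limma or DESeq2.

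Elongases alternate with desaturases, and 12 of the 14 genes of the elongation cycle were tested. Limma called 0, beside 0.186% of all genes tested called lower and 0.135% higher, and 2 had an unadjusted *P* under 0.05, beside 13.3%. DESeq2 called 2 lower, beside 2.03% of the genes it tested, and edgeR 0, beside 0.315%, and the median log2 fold change was −0.11. *Elovl5*, which elongates the products of *Fads2*, had normalized counts of 24423 and 36037 in WT and 10839 and 12551 in LXRDKO liver. Its log2 fold change was −1.35 (SE 0.20, adjusted *P* = 0.0893 in limma and 8.05e-09 in DESeq2). *Elovl2*, which acts on longer polyunsaturated chains toward docosahexaenoic acid, stood at −0.79 (SE 0.19, adjusted *P* = 0.189 in limma and 0.00147 in DESeq2). *Elovl6*, which makes the stearoyl-CoA that *Scd1* uses, stood at −0.57 and *Elovl7* at 0.60, and neither passed limma or DESeq2.

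Saturated fatty acid synthesis supplies the chains that stearoyl-CoA desaturases use. All 10 of its genes were tested, 9 had a log2 fold change below 0, and the median was −0.83. *Acacb*, the mitochondrial acetyl-CoA carboxylase, was the gene limma called, beside 0.186% of all genes tested called lower, and 6 of the 10 had an unadjusted *P* under 0.05, beside 13.3%. DESeq2 called 5 lower, beside 2.03% of the genes it tested, and edgeR 1, beside 0.315%. *Acacb* had normalized counts of 12108 and 15991 in WT and 2822 and 3501 in LXRDKO liver, and it fell by 2.15 on the log2 scale (SE 0.17, adjusted *P* = 0.0255 in limma). *Fasn*, the fatty acid synthase, was singled out after seeing the data, and its log2 fold change was −1.79 (SE 0.26, adjusted *P* = 0.0893 in limma and 5.79e-11 in DESeq2).

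Of 21 regulators tied to desaturase genes, all were tested. Limma called 3 lower, beside 0.186% of all genes tested, edgeR called 3, beside 0.315%, and 2 of the 3 are the deleted genes themselves. An unadjusted *P* under 0.05 in limma was found for 7 of the 21, the 2 deleted genes among them, beside 13.3% of all genes tested. The median was −0.11 on the log2 scale. Apart from the deleted *Nr1h3* and *Nr1h2*, the called gene was *Srebf1*, which encodes SREBP-1. *Srebf1* had normalized counts of 22205 and 24071 in WT and 3118 and 5287 in LXRDKO liver, with replicate 2 again the higher of each genotype. It fell by 2.51 on the log2 scale (SE 0.24, adjusted *P* = 0.0407 in limma). DESeq2 called 4 lower, beside 2.03% of the genes it tested, these 3 and *Ppara*, a receptor activated by fatty acids, whose log2 fold change was −0.58.

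Fatty acids are activated and built into lipids by acyl-CoA synthetases and acyltransferases, of which 18 of 19 genes were tested, with a median of −0.20 on the log2 scale. Limma called 1 lower, beside 0.186% of all genes tested, namely *Gpam*, the mitochondrial glycerol-3-phosphate acyltransferase, and 7 of the 18 had an unadjusted *P* under 0.05, beside 13.3%. *Gpam* had normalized counts of 13281 and 15190 in WT and 6476 and 7061 in LXRDKO liver, and it fell by 1.07 on the log2 scale (SE 0.11, adjusted *P* = 0.0417 in limma). DESeq2 called 4 lower, beside 2.03% of the genes it tested, and edgeR 1, beside 0.315%.

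Desaturases of other lipids lay on either side of 0. Of 7 genes listed 4 were tested, and their median was 0.26 on the log2 scale, with 1 at an unadjusted *P* under 0.05 in limma, beside 13.3% of all genes tested. Limma called 0, beside 0.186% of all genes called lower and 0.135% higher, DESeq2 0, beside 2.03% and 1.56%, and edgeR 0, beside 0.315%. *Sc5d*, the sterol desaturase of cholesterol synthesis, stood at −0.50. The ceramide-forming *Degs1* stood at 0.13 and *Degs2* at 1.10, and *Tmem189*, which makes plasmalogens, at 0.38.

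**Figure D3:**
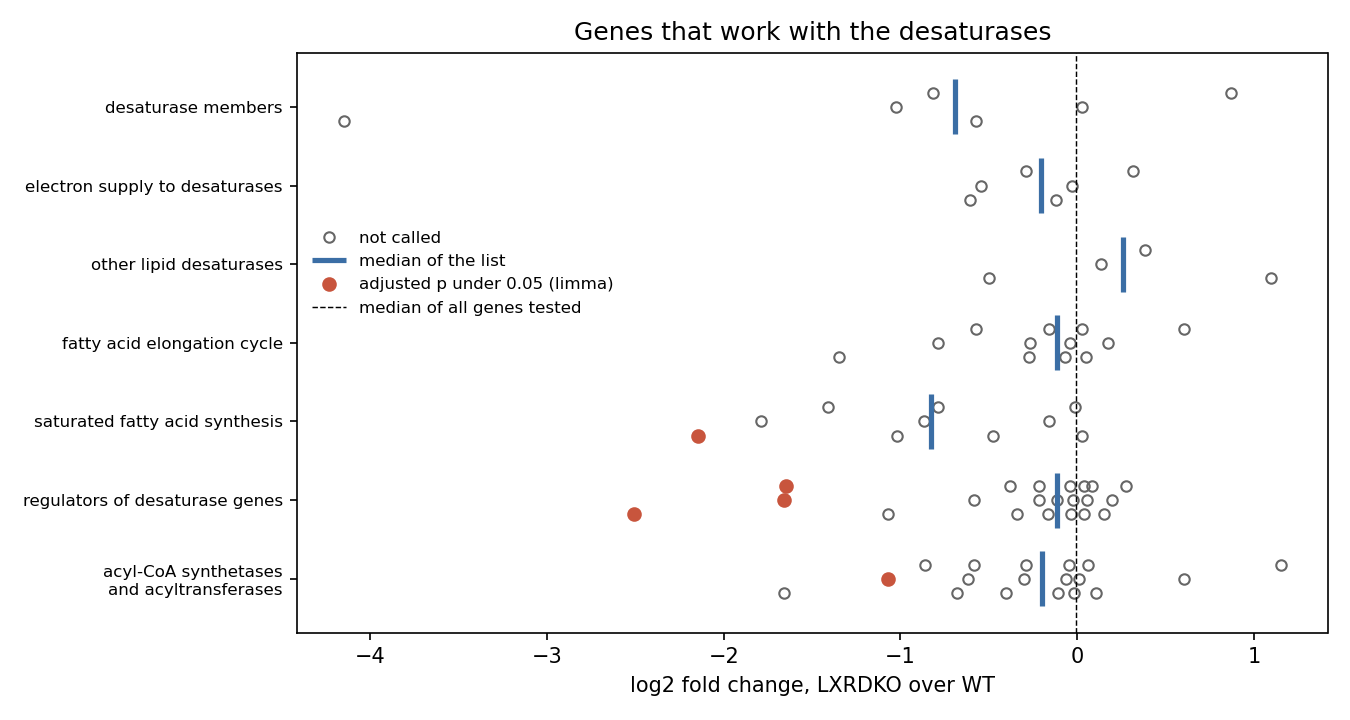
Log2 fold change (LXRDKO over WT, limma) of the tested genes of the desaturase family and of 6 lists of genes that work with it, with 1 circle per gene, red where the adjusted *P* was under 0.05, a blue line at each median and a dashed line at the median of all genes tested. The medians run from −0.83 for saturated fatty acid synthesis to 0.26 for other lipid desaturases.

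The genes with the profile closest to *Scd1* over the 4 livers were sought among 11411 genes that averaged 100 or more normalized counts. Likeness was measured as the root mean square difference between log2 profiles, each centred on its own mean. The 5 closest were *Adam11* (0.64), *Hamp2* (0.73), *Marco* (0.77), *Gbp2b* (0.80) and *Fabp5* (0.83). *Adam11* had normalized counts of 757 and 1467 in WT and 109 and 115 in LXRDKO liver, so it shared the higher WT replicate 2 with *Scd1* but not the difference between the LXRDKO livers. For *Fads2* the 5 closest were much nearer, *Cabcoco1* (0.03), *Mid1ip1* (0.04), *Mpeg1* (0.07), *Aqp8* (0.08) and *Upp1* (0.08). *Mid1ip1*, which encodes an activator of acetyl-CoA carboxylase, had normalized counts of 2562 and 3500 in WT and 1342 and 1629 in LXRDKO liver. With 4 livers, many genes can come close by the genotype difference alone.

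Markers of some other liver cells were measured as well. Of 12 Kupffer cell and macrophage markers 9 had a log2 fold change below 0 and limma called 4 lower (*Cd5l*, *Cd163*, *Clec4f* and *Marco*), beside 0.186% of all genes tested, while DESeq2 called 6 lower, beside 2.03% of the genes it tested, and edgeR 5, beside 0.315%. Their summed normalized counts were 16646 and 18434 in WT liver and 11766 and 6994 in LXRDKO liver. *Clec4f* was the most abundant in WT and *Csf1r* in LXRDKO liver, and *Timd4* was at 0 in LXRDKO replicate 2. The 3 markers with a log2 fold change above 0 were *C1qb* (0.06), *Csf1r* (0.05) and *Cd68* (0.35). *C1qa* (−0.19) and *C1qc* (−0.29) were below 0 and passed neither limma nor DESeq2. Of 8 endothelial markers 7 were below 0 and limma called *Cdh5* and *Kdr* lower, beside 0.186% of all genes tested, and DESeq2 called 2 lower and edgeR 2, beside 2.03% and 0.315%, with sums of 14631 and 13424 against 11434 and 8980 and *Stab1* the most abundant.

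Other marker lists lay on the opposite side. All 6 cholangiocyte markers had a log2 fold change above 0, with sums of 2285 and 3825 in WT liver and 4851 and 5862 in LXRDKO liver and *Spp1* the most abundant. Of 8 stellate cell markers 7 were above 0, with sums of 13455 and 17374 against 19311 and 22029 and *Dcn* the most abundant. Limma and edgeR called 0 in both lists, beside 0.135% of all genes called higher in limma and 0.315% called in edgeR, with 4 cholangiocyte and 3 stellate cell markers at an unadjusted *P* under 0.05 in limma, beside 13.3% of all genes tested, and DESeq2 called 1 and 2 higher, beside 1.56% of the genes it tested. Hepatocyte markers split evenly, with 4 of 8 on each side of 0 and a median log2 fold change of −0.01, and DESeq2 called 2 higher (*Hnf4a* and *Tat*), beside 1.56% of the genes it tested. The part of these cell types in the values of *Scd2*, *Fads3* and the other members was not tested. Among adipocyte markers, the defining *Adipoq*, *Plin1* and *Retn* had at most 1.70, 1.07 and 1.07 normalized counts in any liver. The list summed to 3863, 3682, 2542 and 3503 with *Lipe* the most abundant. Of the 4 tested, 3 had a log2 fold change below 0 and 1, *Fabp4*, above 0 (0.54). *Fabp4* and *Lipe* had an unadjusted *P* under 0.05 in limma, beside 13.3% of all genes tested. Limma called 0, beside 0.186% of all genes called lower and 0.135% higher. DESeq2 called 0, beside 2.03% and 1.56%, and edgeR 0, beside 0.315%.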

How the data were processed

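The authors aligned single-end reads of 50 bases to mm10 with STAR 2.6.0c and deposited a signal per gene and liver, gene counts divided by 1 DESeq2 size factor per library. The counting tool is not stated. All 100040 deposited values (100%) were whole multiples of 1 read within 0.01, so reads were recovered, and size factors were 0.877 and 1.18 (WT) and 1.05 and 0.933 (LXRDKO). The main test was limma 3.58.1 with a variance trend on log2(normalized count + 1), over 15578 genes that averaged 10 or more normalized counts, with Benjamini-Hochberg adjustment over all of them and 50 calls under 0.05. DESeq2 1.42.0 (567 calls among 15797 genes with an adjusted *P*) and the edgeR 4.0.16 quasi-likelihood test (49 calls) were alternatives on recovered reads. The 25010 gene identifiers were matched to GENCODE M21 (24987 found), and merged exons gave lengths.

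The members and lists were chosen with earlier results of these data known. The genes named are the 8 members, the genes limma called in each partner list described or else up to 4 with the largest absolute log2 fold change, 5 genes closest in profile to *Scd1* and to *Fads2*, tested neighbours within 100 kb, and called, most abundant or defining genes of the marker lists described. *Fasn*, *Ppara*, *Timd4*, *C1qa*, *C1qb*, *C1qc*, *Cd68*, *Fabp4* and *Mir6993* were named outside this rule after seeing the data. A further partner list and a further marker list are not described. Chromatin libraries of the same study have no deposited table here and were left out. Pseudocounts, filters, scalings, variance models, thresholds and single left-out livers were varied.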

Additional observations from a re-analysis of the deposited data

How the results depend on the processing

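The log2 fold changes of *Scd1*, *Scd2*, *Fads1*, *Fads2* and *Fads3* kept their direction under all 17 alternatives. Their ranges were −4.80 to −3.49, −1.23 to −0.39, −0.81 to −0.33, −1.27 to −0.78 and 0.52 to 1.22. Both ends of each range came from a left-out liver. A change of filter, limma variance model or threshold, or a replicate block, leaves the fold change as it is. Those alternatives could therefore not turn a direction. *Fads6* changed sign without WT replicate 2, to −0.040. Limma called 50 genes over the table, against 25 with the filter raised to 50 normalized counts (fewer genes tested), 1 without the variance trend, 138 at an adjusted *P* under 0.10, 567 in DESeq2, 580 in DESeq2 with independent filtering set to 0.05 (chosen after seeing the data), and 2 to 262 when a replicate was left out. Members called lower numbered 0 in the main test, beside 29 of all 15578 genes tested. With upper-quartile scaling it was 1 (*Scd1*), beside 35 of 15592 genes. At an adjusted *P* under 0.10 it was also 1, beside 83 of 15578 genes. DESeq2 called 2 members lower, among 321 genes called lower, and 3 with its filtering at 0.05, among 330 genes. Where a group was left with 1 liver, that liver was assumed to vary like the others, and the cause of these differences was not tested. No alternative called a member higher, and the LXRDKO livers were below the WT livers for 6 of 8 members, beside 19.4% of all genes in the table, for 5 with libraries scaled to their totals (15.6% of genes) or upper quartiles (15.2%), for 6 without WT replicate 1 (33.6%) and 7 without WT replicate 2 (34.9%), and for 6 when either LXRDKO liver was dropped (31.8% and 30.9%). These counts without overlap include *Scd3* and *Scd4*, which were close to the limit of detection. The shares beside them include genes that did not enter the test. Over tested genes only, the main setting had 4 of 6 members, beside 23% of genes. The ratio of *Scd3* reads moved from 4.99 to 2.64 without WT replicate 2, a setting chosen after seeing the data.

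Deviations of the livers with the same replicate number were nearly uncorrelated between the genotypes (correlation 0.0031 over 15578 genes). A correlation over all genes cannot show whether the mice were paired. With the replicate number as a block, 90 genes and 1 member, *Scd1*, were called. *Scd3* and *Scd4*, with at most 24 reads in a liver, are limited by depth.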
